A study of Mus musculus with 2040 samples.

Results

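Transcripts of 5 connexin genes were followed in single sorted glial cells of the mouse brain: Gja1, Gjb6 and Gjb2, which encode the connexins known from astrocytes (Cx43, Cx30 and Cx26), and Gjb1 and Gjc3, which encode connexins known from oligodendrocytes (Cx32 and Cx29). They were chosen by name, as 5 of the 32245 gene columns of the expression table, and all 5 were found. Each library was 1 SYFP2-positive cell from a C57Bl/6J mouse given 1 adeno-associated virus whose reporter was driven by a named enhancer or promoter. The 2040 cells came from 47 mice, and the mouse was the replicate. No untreated mice, ages or sexes are given in the labels, so every group carries a virus and a sort for its reporter.

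The dissections sampled were the visual cortex (VISp, 41 mice, 27 vectors), a midbrain and hindbrain dissection (MB/HB, 4 mice) and the cerebellar cortex (CBX, 2 mice). Astrocyte-like cells numbered 739 in 19 VISp mice and 81 in 2 CBX mice, and 41, 36, 31 and 40 in the MB/HB mice MouseID-651228, MouseID-651229, MouseID-651222 and MouseID-615516. The VISp mice had received 3xCore2(390m), GFAP_promoter, ProB12, eHGT_373m, eHGT_374m, eHGT_376h, eHGT_380h, eHGT_385m, eHGT_386m, eHGT_387m, eHGT_390h or eHGT_390m. The MB/HB mice had received MGT_E160m (mice MouseID-651228 and MouseID-651229) or eHGT_381h (mice MouseID-615516 and MouseID-651222), and both CBX mice (MouseID-614198 and MouseID-651221) eHGT_375m. Oligodendrocyte-like cells numbered 926 in VISp, and 920 of them came from the 22 mice with at least 10 such cells, given MBP_promoter, eHGT_361h, eHGT_391h, eHGT_395h, eHGT_396h, eHGT_396m, eHGT_397m, eHGT_400h, eHGT_400m, eHGT_401h, eHGT_403h, eHGT_405m, eHGT_409h, eHGT_410m or eHGT_641m. Each vector was confined to 1 tissue, so tissue and vector cannot be told apart in any tissue difference below, nor cell class and vector. Each vector labels the cells in which its enhancer is active, which need not be all astrocytes or oligodendrocytes of the tissue.

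A cell had 57873 to 1455022 reads (median 434102), and the medians by tissue were 375425 reads in CBX, 409814 in MB/HB and 437417 in VISp. Classes were rebuilt by clustering without any connexin or pannexin gene and named from marker lists, hence "astrocyte-like". In the astrocyte-like cells of each tissue all 12 astrocyte markers were detected, summing to 27290 to 36347 CPM (reads scaled to 1000000 in each cell) per mouse. The VISp cells lay mostly in clusters 1, 2 and 9 (2 of 739 lay in cluster 4, and 1 of these held Gjc3), the MB/HB cells mostly in cluster 4 and the CBX cells mostly in cluster 8 (78 cells), so the 3 tissues compare different clusters of 1 class. Cells in which over 50% of another class's markers were also detected made up 3.70% of the CBX, 10.1% of the MB/HB and 3.92% of the VISp astrocyte-like cells. In MB/HB, 12 of those 15 cells came from MouseID-651229.

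Connexins are membrane proteins that assemble into hemichannels. Hemichannels of adjoining cells dock into gap junctions, through which ions and small metabolites pass. Astrocytes are coupled to each other in this way, and Gja1 and Gjb6 products carry most of that coupling. Oligodendrocytes are coupled to astrocytes in part through channels that pair Gjb1 products with connexins of astrocytes. The product of Gjc3 is known from myelinating cells, and it is not known to form junctions between cells.

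In GENCODE vM21 (GRCm38, which is mm10) Gja1 lies at chr10:56377330-56402513 on the plus strand, and Gjb1 at chrX:101376378-101385629, also plus. Gjb2 (chr14:57098600-57104702) and Gjb6 (chr14:57123303-57133611) are neighbours on the minus strand, 18.6 kb apart. Gjc3 lies at chr5:137953461-137963098 on the minus strand. The coding sequence of each is in 1 exon, except for Gjc3, where it is in 2. No annotated gene overlaps any of the 5. The neighbours Gjb2 and Gjb6, and Gjc3, carry the results on levels within a class and between tissues, so the 250 bases before their RefSeq transcription starts (GRCm38.p6) are shown, 5′ to 3′ on the gene's strand, with each CG dinucleotide in capitals.
Gjb2 (chr14:57104703-57104952, minus strand): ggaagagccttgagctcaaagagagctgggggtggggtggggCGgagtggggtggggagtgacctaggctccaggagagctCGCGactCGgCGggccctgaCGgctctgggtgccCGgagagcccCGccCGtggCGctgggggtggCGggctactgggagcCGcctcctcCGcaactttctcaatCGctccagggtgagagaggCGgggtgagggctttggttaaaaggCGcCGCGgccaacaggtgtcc
Gjb6 (chr14:57133612-57133861, minus strand): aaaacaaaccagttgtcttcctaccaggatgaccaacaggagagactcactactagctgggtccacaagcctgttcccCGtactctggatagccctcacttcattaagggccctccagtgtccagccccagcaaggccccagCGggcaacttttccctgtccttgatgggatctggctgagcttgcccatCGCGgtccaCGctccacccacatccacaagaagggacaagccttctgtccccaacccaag
Gjc3 (chr5:137963099-137963348, minus strand): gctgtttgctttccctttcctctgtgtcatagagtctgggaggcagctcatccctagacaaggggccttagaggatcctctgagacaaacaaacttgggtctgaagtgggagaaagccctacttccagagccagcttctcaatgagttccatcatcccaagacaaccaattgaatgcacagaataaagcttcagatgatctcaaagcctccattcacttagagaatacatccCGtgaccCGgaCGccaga
The Gjb2 sequence held 18 CG dinucleotides and the Gjb6 sequence 5, and 69.2% and 56.8% of their bases were G or C. The Gjc3 sequence held 3 CG dinucleotides at 48.8% G or C. Over the 32851 promoters of the table, the median was 6 CG dinucleotides, and 21.7% of promoters held as many as Gjb2, 55.6% as many as Gjb6 and 70.97% as many as Gjc3. Methylation and factor binding were not measured here.

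In VISp astrocyte-like cells Gja1 and Gjb6 were abundant in nearly every cell, Gjb2 was low and patchy, and Gjb1 and Gjc3 were near 0. Gja1, the main astrocyte connexin, had mouse means of 1917 CPM at the lowest, 2784 at the median and 3893 at the highest over 19 mice. Gjb6, its partner in astrocyte coupling, ranged from 1603 over 2297 to 3116 CPM. Per kilobase of the transcript with the longest coding region, the median was 907 CPM for Gja1 and 1091 CPM for Gjb6, and the ranges over mice (624.3 to 1268 and 761.3 to 1480) overlapped. At least 1 read of Gja1 was found in 99.3% of the 739 cells, and of Gjb6 in 98.8%.

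Gjb2, whose product can also pair with oligodendrocyte connexins, ranged from 8.83 over 27.1 to 63.2 CPM in VISp astrocyte-like cells. It had a read in 33.6% of the 739 cells (exact 95% interval 30.2% to 37.1%), and cells with a read held a median of 69.9 CPM. Over mice the share ran from 14.7% to 53.3%. Exact intervals, here and below, pool the cells of all mice and cover counting error only. Per kilobase, the highest Gjb2 mouse stood at 26.3 CPM, below the lowest Gja1 and Gjb6 mouse. The cell names of the 2 mice with the highest Gjb2 means (63.2 and 60.5 CPM) began with SM, as did those of 3 of the 19 mice in all. For the 16 mice whose cell names began with AB, Gjb2 ranged from 8.83 to 39.3 CPM. These prefixes were read from the cell names only. Fibroblasts of the meninges also express Gjb2. The summed fibroblast markers had a median of 0 CPM both in the cells with a Gjb2 read and in those without.

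**Figure D1:**
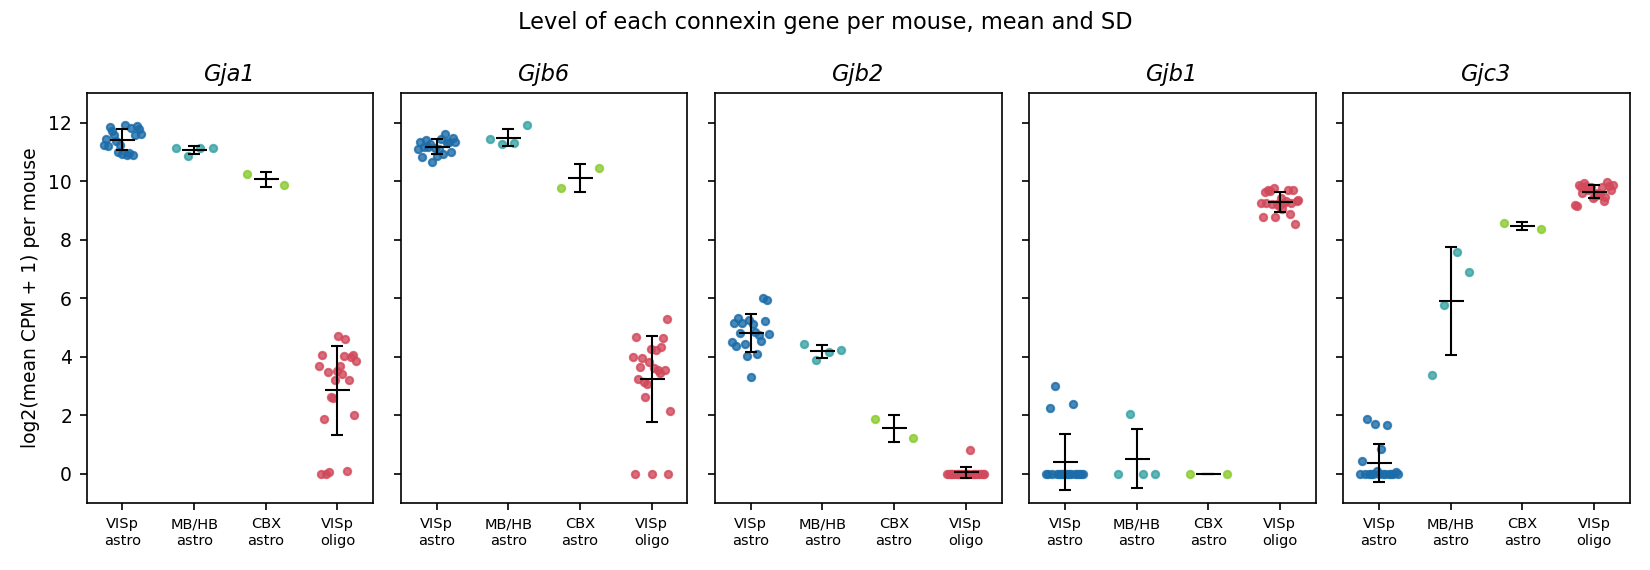
Level of each of the 5 connexin genes per mouse, as log2(mean CPM + 1), in VISp, MB/HB and CBX astrocyte-like cells and VISp oligodendrocyte-like cells. Each point is 1 mouse with at least 10 cells of the class, and bars give mean and SD. Gjc3 steps up from near 0 in VISp astrocyte-like cells to 8.47 in CBX, while Gja1, Gjb6 and Gjb2 are lowest in CBX among the astrocyte-like groups.

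In CBX astrocyte-like cells all 3 astrocyte connexins were lower than in VISp, and Gjc3 was high. Differences are given on the log2(mean CPM + 1) scale, which understates changes of low genes, with limma's standard error (SE) and Benjamini-Hochberg adjusted p over 3965 genes tested. Gja1 stood at 1206 CPM in MouseID-614198 and 944 CPM in MouseID-651221, both below every VISp mouse. The difference was -1.36 (SE 0.24, adjusted p = 5.99e-05). Gjb6 stood at 880 and 1409 CPM, again below all 19 VISp mice, with a difference of -1.06 (SE 0.20, adjusted p = 1.94e-04). Without MouseID-614198 this fell to -0.72 and no longer passed (adjusted p = 0.110).

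Gjb2 was at 2.66 and 1.32 CPM in the 2 CBX mice, below every VISp mouse. It differed from VISp by -3.28 (SE 0.51, adjusted p = 1.02e-05). A Gjb2 read was found in 2 of 81 CBX cells (2.47%, exact interval 0.300% to 8.64%). In neuron-like VISp cells, which should lack the gene, it was found in 4 of 83 (4.82%). Of those 83 cells 18.07% also held over 50% of another class's markers, and no such share was measured in neuron-like cells of CBX. In total 4 of the 5 members passed the test between CBX and VISp, 3 lower and 1 higher, where 14.7% of all genes tested passed, 8.1% lower and 6.58% higher. The names of all CBX and MB/HB cells began with AB. With the 16 VISp mice of that prefix alone, the differences were -1.36 for Gja1, -1.02 for Gjb6, -3.15 for Gjb2 and 8.06 for Gjc3, all past limma's threshold. The exception, Gjb1, had no read in any of the 81 CBX cells, which allows a share of up to 3.70%.

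Gjc3 had mouse means of 377.6 and 332.3 CPM in CBX astrocyte-like cells, against a lowest, median and highest of 0, 0 and 2.63 CPM in VISp. The CBX and VISp mice were far apart, with a difference of 8.12 (SE 0.74, adjusted p = 3.82e-10). Only 0.151% of the genes tested differed by as much. A Gjc3 read was found in 76 of 81 CBX cells (93.8%, exact interval 86.2% to 97.97%) and in 7 of 739 VISp astrocyte-like cells (0.947%, 0.382% to 1.94%). Neuron-like VISp cells, which should lack the gene, had a Gjc3 read in 8 of 83 (9.64%) at a median depth of 430400 reads. Per kilobase, Gjc3 reached 88.7 CPM in CBX astrocyte-like cells (median of the 2 mice), below the lowest oligodendrocyte-like VISp mouse (142.4 CPM).

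Gjb1 did not accompany Gjc3 in CBX. It was listed at 0 in all 81 cells, and so were the oligodendrocyte markers Cldn11, a tight junction gene of myelin, and Ugt8a, an enzyme of myelin lipid synthesis. Mog, Mal and Opalin, a myelin surface protein, a myelin membrane protein and an oligodendrocyte membrane protein, each had a read in 1 of 81 cells. Other markers of the list were found more widely: Mag in 52 of 81 cells (64.2%), Mbp in 34 (41.98%) and Aspa in 16 (19.75%). In VISp those shares were 20.7%, 40.32% and 5.007%. Mobp had a read in 7 CBX cells and Ermn in 3. Of the 12 oligodendrocyte markers, 10 were above 0, and their sum was 1935 to 2224 CPM per CBX mouse against 171.1 to 1311 CPM in VISp. Most of that sum was Cnp, a myelin-associated phosphodiesterase, at a mean of 1907 CPM with a read in all 81 cells. Cnp was the 1 marker of 11 tested that passed between CBX and VISp (difference 3.02, SE 0.28, adjusted p = 6.20e-10). The fibroblast markers summed to 49.2 and 59.4 CPM in the 2 CBX mice and the endothelium markers to 13.5 and 19.5 CPM.

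Within CBX mice the correlations of Gjc3 with myelin genes from cell to cell were weak and differed in sign. The Spearman correlation with Cnp over the cells of a mouse was -0.23 and 0.02 in the 2 mice, and with Mbp, a major myelin protein gene, -0.21 and -0.17. With Aspa, an enzyme of acetate release for myelin lipids, it was 0.03 and 0.23. The 76 cells with a Gjc3 read had a median of 1911 CPM of summed oligodendrocyte markers, and the 5 cells without one 2552 CPM. Leaving out the 3 CBX cells that also held markers of another class gave Gjc3 means of 381.5 and 334.2 CPM.

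**Figure D2:**
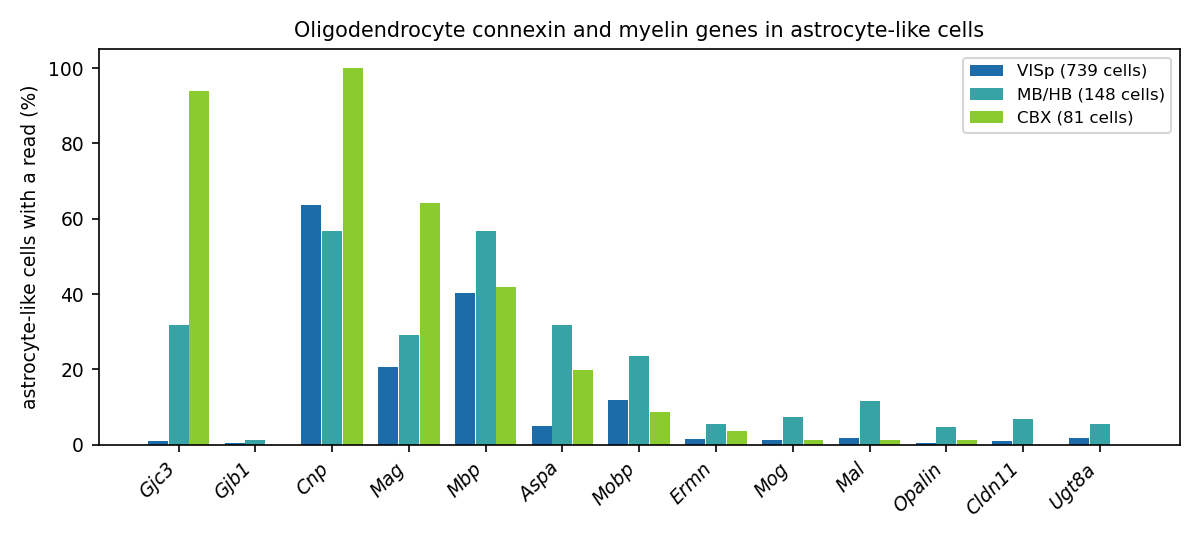
Percent of astrocyte-like cells with at least 1 read of Gjc3, Gjb1 and 11 oligodendrocyte markers, by tissue. Bars are shares of all cells of a tissue pooled over its mice. In CBX, Gjc3 (93.8%) and Cnp (100%) are high, Mag (64.2%) and Mbp (41.98%) lie between, and Gjb1, Cldn11 and Ugt8a stand at 0.

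In MB/HB astrocyte-like cells Gja1 and Gjb6 stayed high in all 4 mice, and Gjc3 was intermediate and uneven. Gjc3 stood at 9.27 CPM in MouseID-651228, 53.6 CPM in MouseID-651229, 117.9 CPM in MouseID-651222 and 188.6 CPM in MouseID-615516. The eHGT_381h mice were the 2 higher ones and the MGT_E160m mice the 2 lower ones, and all 4 lay above every VISp mouse. The difference from VISp was 5.55 (SE 0.55, adjusted p = 2.31e-09), and Gjc3 was the 1 member of 5 that passed, where 14.4% of all genes tested did, 7.04% higher and 7.36% lower. Its log2 levels spread more over the MB/HB mice (SD 1.85, n = 4) than over the VISp mice (SD 0.65, n = 19). The SE rests on 1 spread shared by the tissues. A Gjc3 read was found in 14.6%, 38.9%, 25.8% and 47.5% of the cells of these mice, in the same order, or 47 cells overall (31.8%). The cells with a read held a median of 199.8 CPM.

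Markers of other cell types moved with the MB/HB cells as well. The summed oligodendrocyte markers ranged from 839 CPM to 6262 CPM per mouse, highest in MouseID-651229, and 3 of the 11 markers tested passed against VISp, all higher, among them Aspa and Mal. The 6 endothelium markers, all above 0, summed to 7.11 CPM at the lowest, 444.5 CPM at the median and 1248 CPM at the highest of the 4 mice, against 0.776 to 23.1 CPM (median 3.76 CPM) in VISp. The 6 fibroblast markers summed to 29.9 to 83.2 CPM, against 0.192 to 13.8 CPM in VISp. Gjb1 had a read in 2 MB/HB cells. The 47 cells with a Gjc3 read had a median of 1555 CPM of summed oligodendrocyte markers and the MB/HB cells without one 846 CPM. The within-mouse correlation of Gjc3 with oligodendrocyte markers differed in sign between markers. Its median was highest with Mbp (0.33, above 0 in 4 of 4 mice), and it was 0.18 with Mobp (2 of 4), 0.09 with Cnp (3 of 4), 0.07 with Aspa (2 of 4) and -0.14 with Mal (1 of 4). The part of these markers in the Gjc3 level was not tested. Without the 15 cells that held over 50% of another class's markers, the Gjc3 means of the MB/HB mice ranged from 9.27 to 193.4 CPM, and without MouseID-651229 the difference from VISp was 5.59.

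In MB/HB 6 cells, all from MouseID-615516, fell into cluster 8 with the CBX cells. Each of these 6 held Gjc3, at 184.5 to 671.6 CPM, and they averaged 1158 CPM of Gja1 and 1031 CPM of Gjb6. Without them, MouseID-615516 had a Gjc3 mean of 132.1 CPM, and 41 of the other MB/HB cells (28.9%) had a Gjc3 read.

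Gja1 had mouse means of 2234, 1843, 2269 and 2236 CPM in MB/HB (mice MouseID-651228, MouseID-651229, MouseID-651222, MouseID-615516), within the VISp range except for MouseID-651229, which lay below all 19 VISp mice. Its difference from VISp was -0.36 (95% interval -0.72 to 0.00, adjusted p = 0.194). Gjb6 stood at 2775, 2493, 3897 and 2547 CPM, with a difference of 0.31 (0.00 to 0.62, adjusted p = 0.189). Neither passed limma's test after adjustment. Gjb2 stood at 20.7, 13.8, 17.8 and 16.8 CPM, inside the VISp range, with a difference of -0.64 (-1.41 to 0.13, adjusted p = 0.309).

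The ratio of Gja1 to Gjb6 was lower in MB/HB than in VISp. In VISp the ratio of mean CPM was above 1 in 17 of 19 mice (lowest 0.689, median 1.17, highest 1.86), and in MB/HB it was below 1 in 4 of 4 (0.582 to 0.878). These CPM are not scaled by transcript length, so a ratio of 1 does not mark equal transcript numbers. Per kilobase, the VISp median was 907 CPM for Gja1 and 1091 CPM for Gjb6. The log2 ratio was -0.43 ± 0.26 (SD, n = 4) in MB/HB and 0.24 ± 0.35 (SD, n = 19) in VISp, a difference of -0.67 (exact two-sided permutation test, p = 0.00158, 0.00474 adjusted over the 3 tissue pairs). This ratio was chosen after the values had been seen. In the 2 CBX mice the ratio was 1.37 and 0.670, on both sides of 1.

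Directly between CBX and MB/HB, Gja1 (-1.002, SE 0.28, adjusted p = 0.0138), Gjb6 (-1.37, SE 0.24, adjusted p = 7.82e-05) and Gjb2 (-2.64, SE 0.59, adjusted p = 0.00214) were lower in CBX by limma, 3 of 5 members where 10.8% of all genes passed, 6.15% lower and 4.69% higher. The higher CBX mouse stood at 1206 CPM of Gja1, 1409 CPM of Gjb6 and 2.66 CPM of Gjb2. The lowest MB/HB mouse stood at 1843, 2493 and 13.8 CPM. Without MouseID-651221, Gja1 (adjusted p = 0.242) and Gjb2 (0.0736) no longer passed. Gjc3 was 2.57 higher in CBX (SE 0.86), just short of the threshold (adjusted p = 0.0510). Averaging log2 values over cells, which weights the share of cells with the gene, gave 5.44 and an adjusted p of 5.14e-12 in limma. That setting also called 1161 genes in place of 430, 969 of them higher in CBX. Its median difference over all genes was 0.20.

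**Figure D3:**
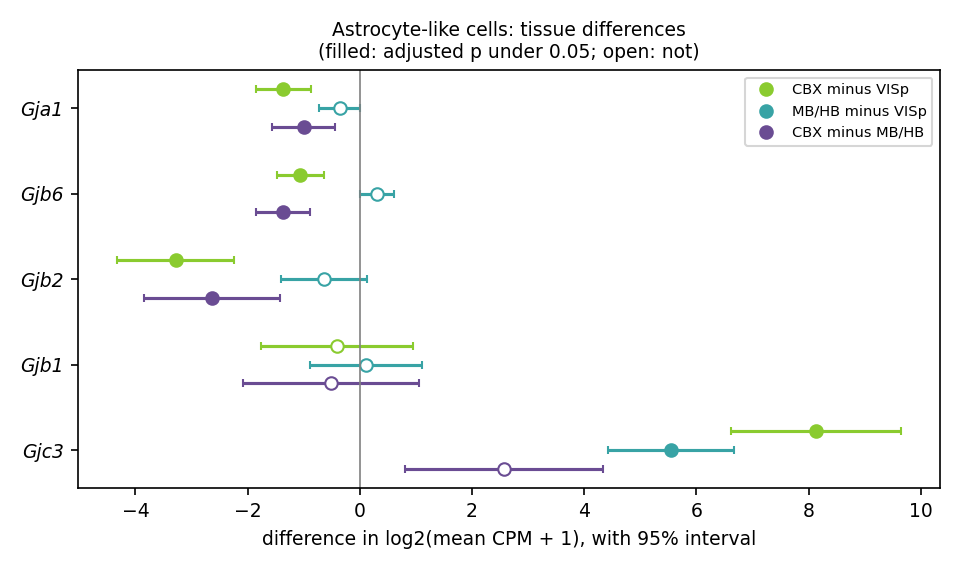
Differences between tissues in log2(mean CPM + 1) of each connexin in astrocyte-like cells, with limma's 95% intervals, over 19 VISp, 4 MB/HB and 2 CBX mice. Filled points passed at an adjusted p of 0.05. Gjc3 lies far to the right in CBX and MB/HB against VISp, and Gja1, Gjb6 and Gjb2 lie to the left in both CBX contrasts.

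Shares of cells were also compared after thinning every cell to 50000 reads, which removes differences in depth. A Gjb2 read was found in 28.7% ± 10.5 (SD, n = 19) of a mouse's VISp astrocyte-like cells, 14.02% ± 2.58 (n = 4) in MB/HB and 2.48% ± 0.216 (n = 2) in CBX. Gjb2 was thus less frequent in CBX than in VISp (difference -26.2 points, exact two-sided permutation test over mice, p = 0.00476, the smallest it can give, adjusted p = 0.0238) and in MB/HB than in VISp (-14.7 points, exact p = 0.0125, adjusted p = 0.0470). The second call sat at the threshold and was lost in 6 of 6 analyses that left out 1 MB/HB or CBX mouse. For Gjc3 the shares were 89.9% ± 4.37 in CBX, 28.4% ± 15.5 in MB/HB and 0.517% ± 1.04 in VISp (exact adjusted p = 0.0238 and 0.00169 against VISp). With 2 against 4 mice, CBX and MB/HB cannot reach 0.05 in this test (smallest p 0.0667). In all, 4 of the 15 comparisons passed, all of Gjb2 and Gjc3. Leaving out either CBX mouse leaves 1 CBX mouse, and then 1 of 15 passed, Gjc3 in MB/HB.

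**Figure D4:**
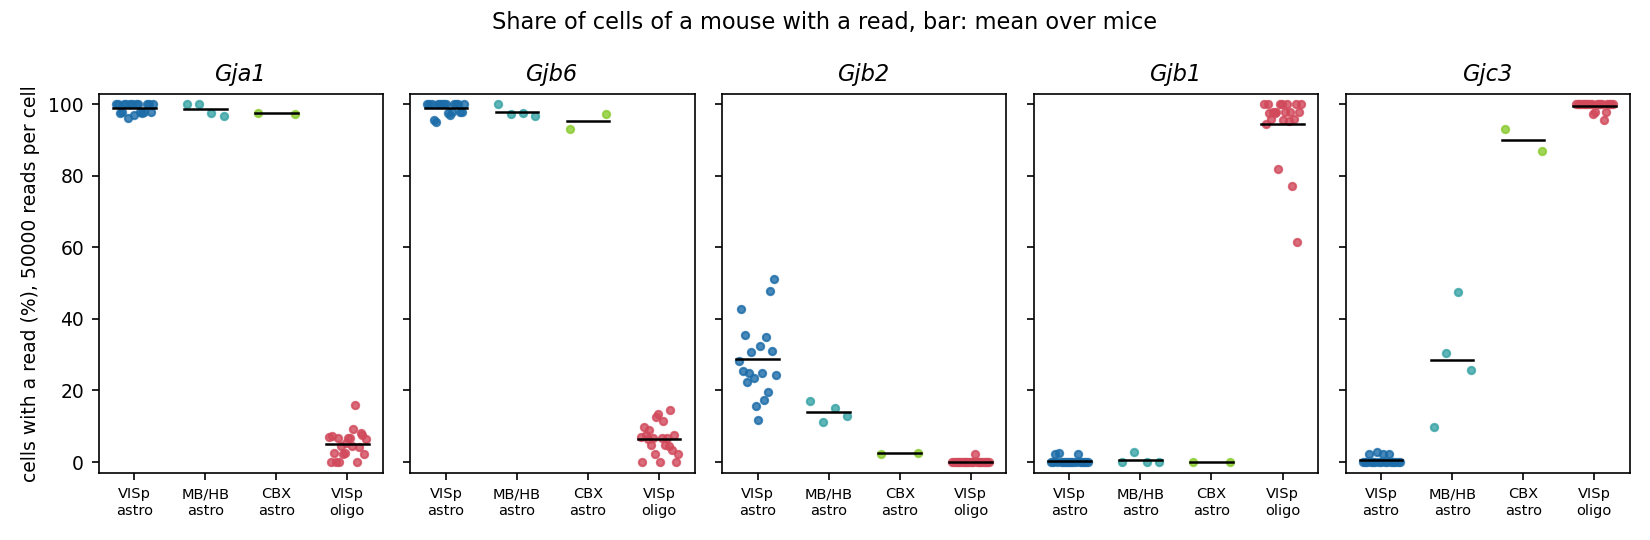
Percent of the cells of a mouse with at least 1 read of each connexin after thinning every cell to 50000 reads, in VISp, MB/HB and CBX astrocyte-like cells and VISp oligodendrocyte-like cells. Each point is 1 mouse and the bar is the mean over mice. Gja1 and Gjb6 are at 93.02% or more in every astrocyte-like group, while Gjb2 falls from VISp to CBX and Gjc3 runs the other way.

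Within cells, Gja1 and Gjb6 were found together. In VISp, 98.2% of the astrocyte-like cells held both, which is what 2 genes present in nearly all cells give. The combination Gja1, Gjb6 and no other member was found in 64.01% of VISp cells, and Gja1, Gjb6 and Gjb2 in 33.02%. In CBX the most frequent combination was Gja1, Gjb6 and Gjc3, in 72 of 81 cells (88.9%). In MB/HB it was Gja1 and Gjb6 alone, in 81 cells (54.7%), ahead of Gja1, Gjb6 and Gjc3 in 39 cells (26.4%).

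The levels of Gja1 and Gjb6 varied together only weakly from cell to cell. Their Spearman correlation over the cells of a VISp mouse had a median of 0.20 (-0.10 to 0.42, above 0 in 17 of 18 mice with at least 20 cells). In MB/HB it was 0.41 (0.38 to 0.47, 4 of 4 mice), and in the 2 CBX mice 0.20 and 0.40. Cells of a mouse share a vector and a sort. The correlation of Gja1 with the cell's read number was 0.09, and of Gjb6 0.06 (medians over 18 VISp mice). Gjb2 correlated with Gja1 at 0.05 and with Gjb6 at 0.11 in VISp, and after thinning the share of cells with both Gjb2 and Gjb6 was 29.4% where the product of their shares was 29.01%. A correlation this weak in sparse counts is no finding for the 2 neighbouring genes of chromosome 14. Between cells of a VISp mouse, the coefficient of variation was 47.7% for Gja1, 48.4% for Gjb6 and 208.8% for Gjb2 (medians over 18 mice).

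Correlations of the astrocyte connexins with state genes were weak. With Gfap, an intermediate filament gene of reactive and of white matter or pial astrocytes, the median within-mouse correlation in VISp was 0.00 for Gja1 and -0.07 for Gjb6. With Fos, an immediate-early gene, it was -0.12 and 0.03 over 16 mice, and with Ccn1, a secreted matrix protein, 0.12 and 0.05. Gjb2 had its largest of these values with Ccn1 (0.15, above 0 in 13 of 18 mice).

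Among the 817 other genes with a read in at least 50% of the VISp astrocyte-like cells, those most like Gja1 by mean within-mouse correlation over 18 mice were S1pr1 (0.36), a sphingosine phosphate receptor, Gpr37l1 (0.36), an astrocyte receptor, and Slc1a3 (0.33), the glutamate transporter GLAST. For Gjb6 they were Gpr37l1 (0.30), Htra1 (0.29), a secreted protease, and Slc7a10 (0.28), an amino acid exchanger. For Gjb2 they were Ssu72 (0.15), Gpr37l1 (0.14) and Sumf2 (0.13), in 13 or 14 of 18 mice above 0. The median over all genes compared was 0.00 for Gja1, 0.00 for Gjb6 and 0.01 for Gjb2.

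VISp oligodendrocyte-like cells carried the opposite set. Gjb1 ranged from 367.02 over 609.8 to 872.6 CPM over 22 mice, and Gjc3 from 570 over 832 to 1002 CPM. Per kilobase, Gjb1 ranged from 234.5 over 389.7 to 557.6 CPM and Gjc3 from 142.4 to 250.5 CPM, and these ranges overlapped at their ends only. A read was found in 887 of 926 cells (95.8%) for Gjb1 and in 923 (99.7%) for Gjc3, and 885 cells (95.6%) held both. Gjb2 had a read in 1 of 926 cells.

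All 5 members passed between VISp oligodendrocyte-like and astrocyte-like cells in limma. Of the 3974 genes tested 62.5% passed, 23.1% higher and 39.4% lower in oligodendrocyte-like cells. Gjc3 was higher in oligodendrocyte-like cells by 9.30 (SE 0.15, adjusted p = 1.05e-42) and Gjb1 by 8.88 (SE 0.21, adjusted p = 5.53e-36). Gja1 was lower by 8.58 (log2 difference -8.58, SE 0.34, adjusted p = 2.03e-27), Gjb6 by 7.95 (-7.95, SE 0.32, adjusted p = 8.03e-27) and Gjb2 by 4.78 (-4.78, SE 0.19, adjusted p = 1.54e-27). The median of all genes tested was -0.25. The classes were built from other genes of the same cells, with no connexin among them.

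A small amount of Gja1 and Gjb6 was measured in oligodendrocyte-like cells, with mouse means of 0 over 9.84 to 25.3 CPM and 0 over 10.97 to 38.4 CPM. Gja1 had a read in 70 of 926 cells (7.56%) and Gjb6 in 63 (6.80%), against 13.3% and 10.8% of the 83 neuron-like VISp cells, which should lack both. The source of these reads was not tested in either class. The 63 cells with a Gjb6 read had a median of 814 CPM of summed astrocyte markers, and the 863 without one 278.8 CPM.

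Gjb1 varied more than Gjc3 between cells (median coefficients of variation of 60.9% and 44.9% over 21 mice) and between oligodendrocyte-like clusters. Cluster 7 held 91 VISp cells, most with reads of Enpp6 (91.2%), an enzyme of newly formed oligodendrocytes, and Klk6 (69.2%), a protease of a mature oligodendrocyte state. In 14 mice with at least 3 cells both there and in clusters 0 and 3, the largest oligodendrocyte-like clusters, Gjb1 was higher in cluster 7 in 13 mice, at a median of 1181 against 642 CPM. Gjc3 was lower there in 12 of the 14 mice, at 782 against 867 CPM. More genes per cell were detected in cluster 7 in 14 of 14 mice (median 5539 against 4364), at similar read numbers.

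Cluster 5 stood at the other end. In the 7 mice that could be compared, Gjb1 was lower than in clusters 0 and 3 in 6 mice (median ratio 0.737), while Gjc3 was lower in 4 and higher in 3 (716.2 against 833.7 CPM). Fewer genes were detected in cluster 5 in 7 of 7 mice (median 3414 against 4333). The mouse with the lowest Gjb1 mean, MouseID-619578 of eHGT_410m (367.02 CPM, a read in 65.4% of cells), had 65.4% of its 26 cells in cluster 5, and its Gjc3 mean was 915 CPM. These cluster comparisons were chosen after the values had been seen and carry no test, and the part of the number of genes detected in them was not tested.

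**Figure D5:**
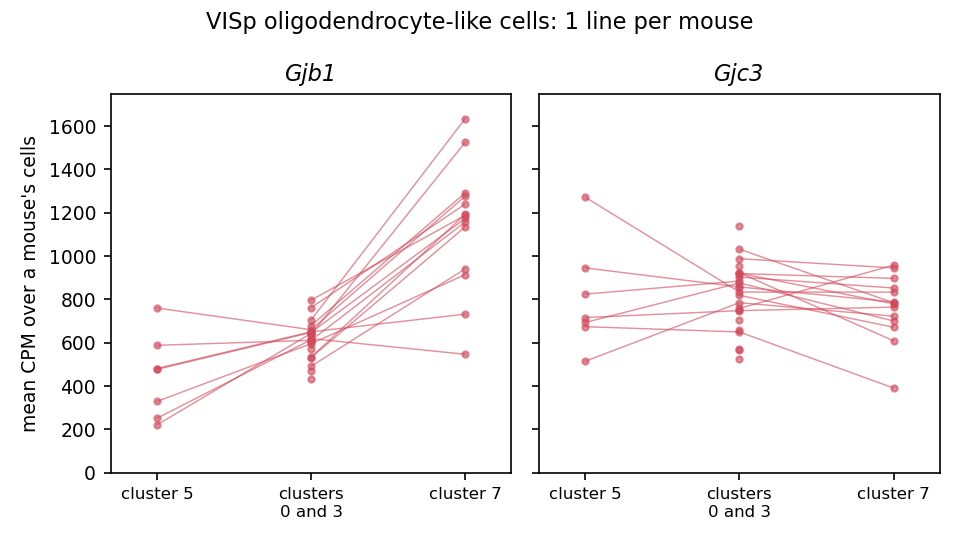
Mean CPM of Gjb1 and Gjc3 in VISp oligodendrocyte-like cells by cluster, with 1 line per mouse and only mice with at least 3 cells in a group shown for it. Against clusters 0 and 3, Gjb1 is lower in cluster 5 in 6 of 7 mice and higher in cluster 7 in 13 of 14. Gjc3 is lower in cluster 5 in 4 of 7 mice and in cluster 7 in 12 of 14. Its mouse values run from 391.1 to 1272 CPM. Few mice have a value in both cluster 5 and cluster 7.

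Correlations within mice were taken over the same cells, so they are no separate evidence for the cluster differences. Klk6 had a read in 69.2% of the VISp cells of cluster 7, against 2.9% in cluster 0 and 6.1% in cluster 3. For Enpp6 these shares were 91.2%, 14.2% and 23.55%. Gjb1 and Gjc3 were almost unrelated (median 0.07, -0.19 to 0.43, above 0 in 14 of 21 mice). Gjb1 correlated with Klk6 at 0.34 (17 of 19 mice), with Enpp6 at 0.19 (16 of 20), with Ptgds, a prostaglandin synthase, at -0.14 (2 of 21 above 0) and with Il33, a nuclear cytokine, at -0.15. For Gjc3 these 4 values lay between -0.09 and 0.04. Gjb1 also correlated with the number of genes detected (0.25), which Gjc3 hardly did (0.05). The genes most like Gjb1 among 873 were Trf (0.34), which encodes transferrin, Hapln2 (0.27), a nodal matrix linker, and Pmp22 (0.23), a myelin protein. For Gjc3 they were Gpr37 (0.17), Arf4 (0.13) and Sirt2 (0.12).

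No member passed the test among vectors of VISp. Over the 14 mice of the 7 vectors with more than 1 mouse, 0 of 3713 genes (0%) passed limma's F-test in astrocyte-like cells, with 160 at an unadjusted p under 0.05. Over the 12 mice of 5 vectors in oligodendrocyte-like cells 3 of 3333 genes (0.09%) passed, none of them a member. Gjb6 had an unadjusted p of 0.0435 (adjusted 0.697) and Gjc3 of 0.0611 in the oligodendrocyte-like cells. Mice of 1 vector differed by as much as 0.99 log2 units in Gja1 (eHGT_380h, 1956 and 3893 CPM) and 1.80 in Gjb2 (eHGT_380h, 8.83 and 33.3 CPM). This test has little power: on simulated astrocyte-like data of 3713 genes it recovered 3% of 100 genes shifted by 2 log2 units.

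Of the 18 other connexin and pannexin genes, 6 were high enough to test, among them Gja5, Gjc1, Gjd3, Panx1 and Panx2. Gjc1 (Cx45) was higher in CBX astrocyte-like cells than in VISp (mean log2 levels 3.94 and 0.38, difference 3.55, SE 0.59, adjusted p = 3.04e-05), and the other 5 did not pass. Of all genes tested 14.7% passed between CBX and VISp and 14.4% between MB/HB and VISp, where none of the 6 did. Between the VISp classes Gja5 was lower in oligodendrocyte-like cells (-0.87, SE 0.20).

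Of 8 genes whose products bind or organise astrocyte junctions, 3 passed between CBX and VISp, 2 higher and 1 lower, where 14.7% of all genes tested passed. Tjp1, which encodes the scaffold ZO-1 that binds the Gja1 product, was lower in CBX (-2.12, SE 0.44, adjusted p = 6.24e-04), and Ccn3, a matrix protein that can bind that product, was higher (2.88, SE 0.36). The list median was 0.23, against -0.07 for all genes. Between MB/HB and VISp 0 of the 8 passed, where 14.4% of all genes tested did.

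A list of 7 genes of the potassium, water and glutamate handling that coupled astrocytes perform was also compared. In CBX, Slc1a2, the glutamate transporter GLT-1, was lower (-2.27, SE 0.15), as was Glul, glutamine synthetase (-1.83, SE 0.19), while Slc1a3 was higher (0.95, SE 0.27, adjusted p = 0.0123), a call that did not hold without either CBX mouse (adjusted p = 0.154 and 0.133). In MB/HB all 7 passed, 4 higher (among them Kcnj10, a potassium channel, by 1.76, Aqp4, a water channel, by 1.35, and Atp1b2 by 1.91) and 3 lower (Slc1a3, Slc1a2 and Glul). Of all genes tested 14.4% passed there. The Gja1 and Gjb6 differences in MB/HB, -0.36 and 0.31, were smaller in size than each of these 7.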

How the data were processed

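Each library was the polyA RNA of 1 sorted cell, amplified with SMARTer v4. Alignment used STAR to mm10, per the submitters' processing notes; the counting tool, annotation and normalisation are not given in the sources used here. The deposited table gives CPM per cell, and each cell sums to 1000000. All 9484843 positive values were whole reads within 0.001 reads. Of 32245 gene columns 5000 were used (the gene lists and a random set of 4590 protein-coding genes, together a median of 41.8% of reads). Shares of all genes passing refer to this panel, which is enriched for chosen genes. Between CBX and VISp 582 of 3965 genes passed, and 429 of the 3589 random genes among them. Between MB/HB and VISp these counts were 571 and 419, and between CBX and MB/HB 430 and 304.

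Cells were clustered without connexin and pannexin genes (2000 variable genes, 30 principal components, 15 neighbours, Leiden resolution 1, leidenalg 0.10.2, scikit-learn 1.9.0) and named from marker lists; 1 of 11 clusters (40 cells) stayed unnamed. No doublet caller was run. Levels are log2(mean CPM + 1) per mouse with at least 10 cells of a class, for genes with a mean of at least 1 CPM in at least 2 mice. They were tested with limma 3.58.1 (R 4.3.3, trend, Benjamini-Hochberg at 0.05). Because the values are normalised, count models were not used. Shares were compared by exact permutation tests that enumerate every split of the mice. Ranks and exact intervals used scipy 1.17.1. Correlations used mice with at least 20 cells. Exact 95% intervals and the limit for a count of 0 (3 cells) cover counting error only. The labels do not say how mice were assigned, so p-values refer to these mice only. In limma they weigh a difference against the spread between mice within groups, which the 3 tissues share in 1 model. The permutation tests set a difference against those of all regroupings of the mice. The limma tests were checked on simulated data.

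The 5 genes and the other lists were chosen with earlier results of these data known. The other genes named were those of the lists past the threshold, the fixed state genes, and the 3 genes most like each member among genes with a read in at least 50% of the cells. Some genes of these lists are not reported here.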

Additional observations from a re-analysis of the deposited data

Results flagged for a closer look

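In the 4 MB/HB mice, MouseID-651229 of MGT_E160m stood far from the others in Gja1 and Gjb1. Its Gja1 level was 10.85 (log2), with a gap to the next mouse of 0.924 of the whole range, more than Dixon's test allows at 95%, a test that sets a mouse apart by chance in about 1 of 20 such sets. Its Gjb1 level was 2.03 (log2) and its share of cells with a Gjb1 read after thinning 2.78%, while the other 3 mice were listed at 0. The 2 Gjb1 values rest on the same 2 cells, 1 of which kept a read after thinning, and with all other mice at 0 the gap is the whole range by construction, so they carry no test. In the same mouse 12 of 36 astrocyte-like cells also held over 50% of another class's markers.

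Connexin reads were also found in cells outside the tests between groups. Of 83 neuron-like VISp cells, whose shares stand beside some results above, 13.25% had a read of Gja1, 10.84% of Gjb6, 4.82% of Gjb2 and 9.64% of Gjc3, above the 3.61% that a count of 0 allows. Of these cells 18.07% also held over 50% of another class's markers. Of the 8 oligodendrocyte-like MB/HB cells, 75% had Gjb1 and 75% Gjc3, where a count of 0 allows 37.5%. The unnamed cluster had 37 VISp cells, with Gjb1 in 100%, Gjc3 in 100%, Gja1 in 64.86% and Gjb6 in 67.57%, against a limit of 8.11%.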

How the results depend on the processing

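Of 260 member differences recomputed under an alternative, 8 newly passed, 4 no longer passed and 1 reversed, and the rest kept their direction and side of the threshold. The reversal was Gjb1 in MB/HB against VISp, -0.40 without MouseID-651229, in a leave-one-out range of -0.40 to 0.27. Averaging log2 values over cells gave 2 members called between MB/HB and VISp (Gjb2 as well, -0.99, adjusted p = 0.0402 in limma). This averaging called 15.08% of all genes tested in that contrast. It also called 1127 genes between CBX and VISp in place of 582, with 80.8% in place of 44.8% of them higher in CBX, and 1161 between CBX and MB/HB in place of 430 (83.5% and 43.3% higher). Leaving out 1 mouse at a time, 3 to 4 members were called between CBX and VISp, 1 to 1 between MB/HB and VISp, 1 to 4 between CBX and MB/HB, 0 to 0 among vectors in either class, and 1 to 3 of the 15 shares. Without MouseID-614198, 9.26% of genes were called between CBX and VISp (14.7% with both mice) and 6.32% between CBX and MB/HB (10.8%); without MouseID-651221, 8.52% and 6.01%. Among vectors, dropping the filter on low values called 12 genes in astrocyte-like and 13 in oligodendrocyte-like cells, and without MouseID-638254 of MBP_promoter 33 in the latter; no member was among the calls. With the class called in each cell, the MB/HB correlation of Gja1 and Gjb6 was 0.37. The log2 ratio of Gja1 to Gjb6 in CBX reversed against VISp without MouseID-651221 (0.21; -0.82 without MouseID-614198) and against MB/HB without MouseID-614198 (-0.15; 0.88 without MouseID-651221); these were added after seeing the data. The causes were not tested. No paired analysis was possible because the groups compared share no mouse numbers. With 2 CBX mice, precision there rests on the spread of the other tissues.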
